A study of Danio rerio with 20 samples.

Results

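Dimethylformamide (DMF) was set against dimethyl sulfoxide (DMSO) in zebrafish embryos taken whole 48 h after fertilisation, both at 0.025 ml/L, the lower of the concentrations used. The comparison rested on 3 pools of embryos kept in DMF at 0.025 ml/L (DMF25, replicates 1, 3 and 4) and 4 pools kept in DMSO at 0.025 ml/L (DMSO25, replicates 1 to 4), 7 of the 20 pools of the study. Members were taken from the labels and not from measured values. These pools were on 12 of the 20 arrays, and 2 of those arrays held a pool of each solvent. The study hybridised pools of 5 conditions in a loop of dye-swapped pairs, with 2 arrays per pair. The other conditions were DMF at 0.1 ml/L (DMF100), DMSO at 0.1 ml/L (DMSO100) and control embryos without solvent. Per the labels, a pool was the surviving exposed embryos of 1 multi-well plate, so replicates were separate plates. Exposure ran from early cleavage to 48 h at the same temperature and light cycle in all groups, and strain and sex were not given. Plates were assigned in a randomised block design, but the labels do not say which plates shared a block.

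Both solvents are small polar aprotic liquids that mix with water. DMSO is a sulfoxide and DMF an amide of formic acid. They carry poorly soluble chemicals into the water of fish embryo tests, so any effect of the carrier lies under the effect of the chemical tested. At the stage sampled, the zebrafish embryo has segmented muscle, a beating heart and a regionalised brain, and homeobox transcription factors mark positions along its body axis, in its forebrain, pharyngeal arches and fins, and in its sense organs.

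No transcript passed the test between the solvents at this concentration. Of 3652 probes tested, limma called 0 at a Benjamini-Hochberg adjusted p under 0.05 (0% of probes), and the smallest adjusted p was 0.171. Without DMSO25 replicate 1 and control replicate 1 it called 8, all higher in DMF25 and dlx5a among them. The separate-channel fit of limma called 102 of 2685 (66 higher and 36 lower in DMF25). That fit took the readings of a pool in each dye as independent replicates, so its count is not on the same footing. At an unadjusted p under 0.05 the main fit had 326 probes (8.93%), against 182.6 expected with no change. That expectation takes the errors of the pairs as independent and of equal spread, so the excess is no count of changed probes. Of the 326 probes, 201 (5.5% of all tested) were higher in DMF25 and 125 (3.42%) were lower in DMF25. The log2 difference, DMF25 minus DMSO25, had a median of -0.00233 over all probes, and 90% of probes lay between -0.488 and 0.571. Normalization centred the ratios of each array near 0, so this median could not show a shift shared by most probes. RNA came from whole embryos, so fewer cells of a type and less RNA per cell cannot be told apart in any value given here. None of the 17 marker genes listed for muscle, blood, lens, skin, neural tissue, yolk and liver could be found by name on the array, so the tissue label was not checked against them.

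**Figure D1:**
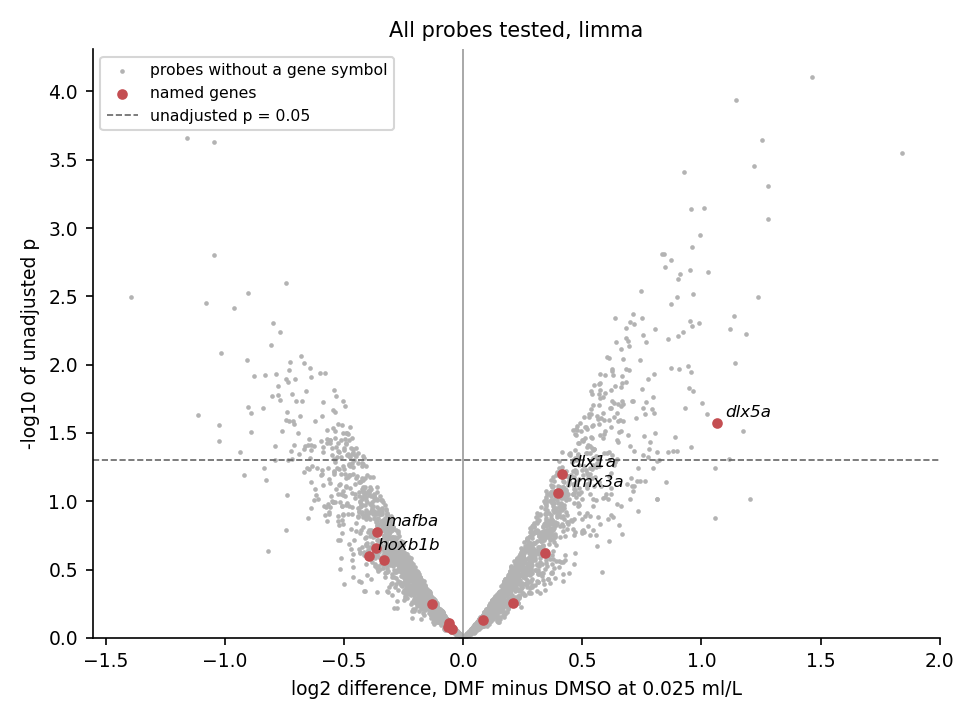
Each point is 1 of 3652 probes, with the log2 difference of DMF minus DMSO at 0.025 ml/L on the horizontal axis and -log10 of limma's unadjusted p on the vertical axis. The 14 named genes are drawn in red; dlx5a, at 1.06, is the 1 named gene above the dashed line at an unadjusted p of 0.05.

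Under the model, the same data bound the difference of the solvents in measured ratios for most of the probes tested. These bounds take the errors of the pairs as independent and of equal spread, and the labels of all arrays as right. The pair of largest weight had arrays that disagreed, as given below. No background was taken off the measured ratios, so they do not bound the difference in RNA where signal was near that of empty spots. The 95% confidence interval of a difference reached a median of 0.494 on either side, unadjusted for the number of probes. For 3040 probes (83.2%) the whole interval lay within 1 of 0 on the log2 scale, which is less than a doubling or halving. It lay within 0.5 of 0 for 322 probes (8.82%). These shares are of the 3652 probes tested. The rest of the 16407 probes had a ratio in too few pairs and were not bounded. A difference of 1 or more in size was estimated for 31 probes, 22 of them higher and 9 lower in DMF25, and none of the 31 passed the adjusted threshold. Without the pair that held both solvents the interval was wider, with a median of 0.67 on either side. The number of arrays limits this precision.

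The difference of the solvents was a weighted sum of pair ratios, and the weights were unequal. The pair that held both solvents, DMF25 replicate 4 over DMSO25 replicate 3, had a weight of 0.467. DMF25 replicate 1 over control replicate 2 and DMF25 replicate 3 over DMF100 replicate 2 each had 0.267. DMF100 replicate 4 over DMSO25 replicate 4 had 0.2, DMSO25 replicate 1 over control replicate 1 had -0.2, and DMSO100 replicate 2 over DMSO25 replicate 2 had 0.133. The loop thus gave 3 routes from DMF to DMSO that shared no pool and no array: the direct pair, a route through control pools and a route through DMF100 pools. The pair of DMSO100 replicate 2 and DMSO25 replicate 2 lies on none of them. DMSO100 replicate 3 over control replicate 4 (-0.067) and DMF100 replicate 3 over DMSO100 replicate 4 (0.067) also entered the fit off these routes. The 3 routes alone therefore do not make up the fitted difference.

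The direct pair stood apart from the other 8 pairs of the model. After the dye effect of each probe, estimated from the other pairs, was taken off, the ratios of its 2 arrays correlated at -0.17 over 3253 probes, against 0.12 to 0.62 within the other pairs. Its arrays gave the same sign for 40.5% of probes, against 51.3% to 67.6% in the other pairs. Before the dye effect was removed the correlation of the direct pair was -0.32, against -0.12 to 0.51 within the other pairs. The same sign was then given by 37.5% of probes, against 45.9% to 52% in the other pairs with a DMF25 or DMSO25 pool. Per the labels, both arrays of the direct pair held the same RNA pools, and most probes put them in opposite order on the 2 arrays. Whether the labels and dyes of these arrays were right was not tested. Across probes, which are not independent replicates, the array with DMF25 in Cy3 correlated at 0.40 with the route through DMF100, and the array with DMF25 in Cy5 at 0.01. With the route through control these arrays correlated at 0.04 and -0.03, in that order. Results are therefore also given without this pair.

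**Figure D2:**
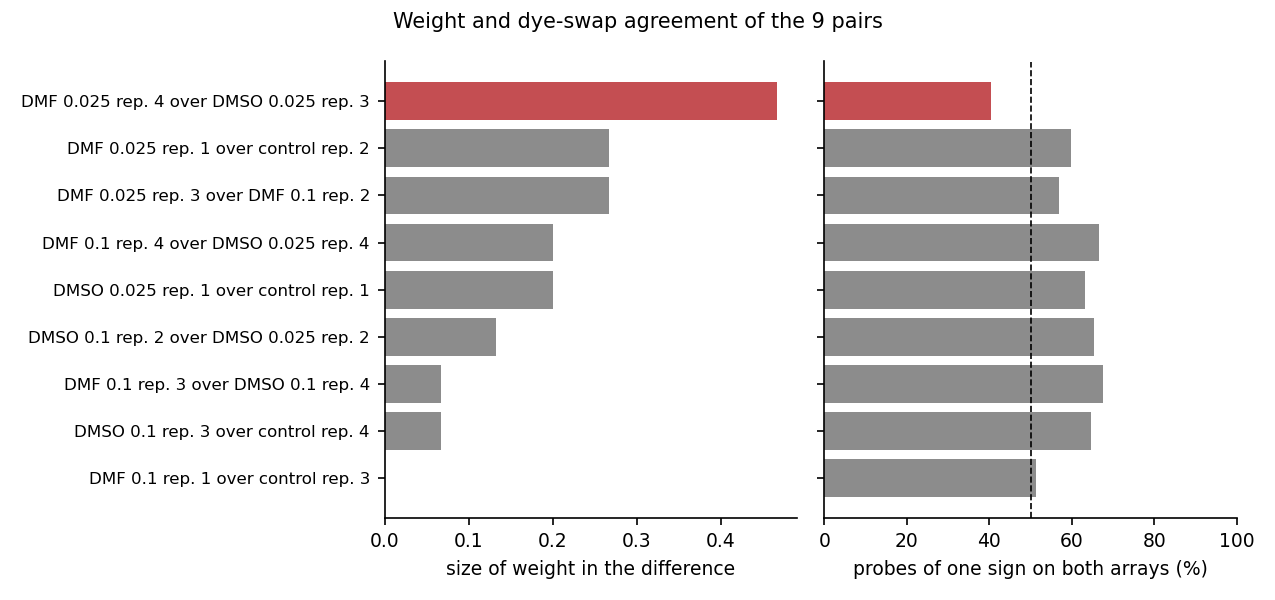
Left, the size of each pair's weight in the difference of DMF minus DMSO at 0.025 ml/L; right, the percentage of probes with 1 sign on both arrays of the pair after removal of the dye effect, with 50% dashed. For a probe with a ratio in all 9 pairs the direct pair (red) has the largest weight, 0.467. It has 40.5% of probes of 1 sign, the lowest of the 9 pairs.

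Signal also differed between the pools that were compared. The median probe amplitude of DMF25 pools was 1.65 and 1.85 times that of empty and buffer spots for replicate 1, 8.59 and 20.2 times for replicate 3 and 4.03 and 1.8 times for replicate 4, in Cy3 and Cy5 in that order. In DMSO25 pools it was 11.9 and 2.16 times for replicate 1, 1.46 and 1.09 times for replicate 2, 1.5 and 1.26 times for replicate 3, and 1.33 and 1.28 times for replicate 4. Thus 3 of 4 DMSO25 pools and 1 of 3 DMF25 pools lay below 2 times the empty spots in both dyes. Of the tested probes, 22.7% were at or under the empty spots in DMSO25 replicate 2 in Cy5. In every other reading of a DMF25 or DMSO25 pool this share was 6.38% or less. The 12 arrays kept 35.5% to 63.5% of their probe spots above the lowest confidence grade. The part of this signal in the differences between solvents was not tested, apart from the background settings given among the limits. DMF25 replicate 3 was the 1 pool of either group in the third scan batch, as the scan names give it, and the others were in the second.

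**Figure D3:**
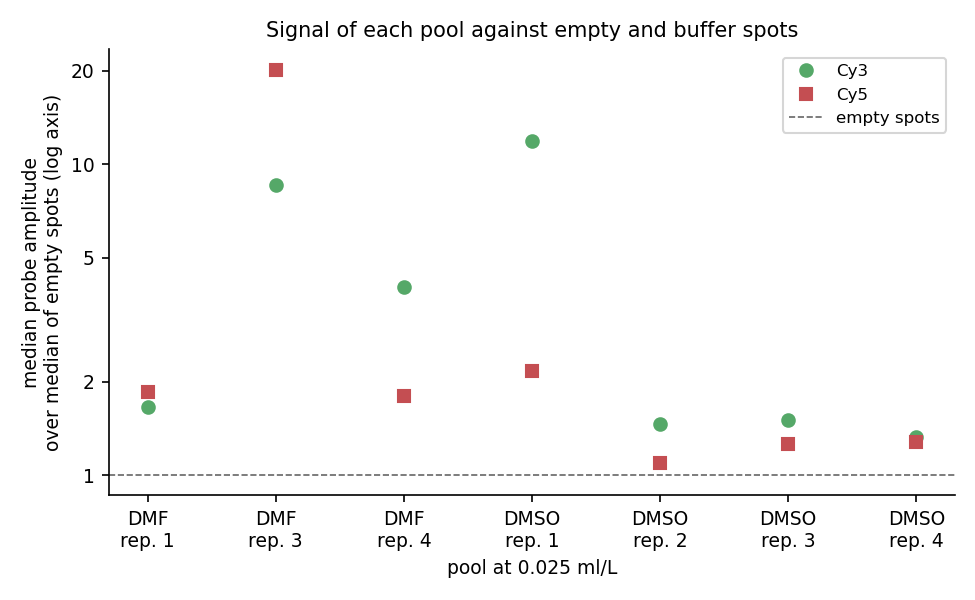
For each pool at 0.025 ml/L, DMF left of DMSO, the median amplitude of probe spots over that of empty and buffer spots is plotted on a log axis, in Cy3 (circles) and Cy5 (squares), 1 array each. DMSO replicates 2, 3 and 4 lie between 1.09 and 1.5, close to the dashed line of empty spots at 1.

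The routes agreed little. Over all probes the log2 difference had a median of 0.112 and an SD of 0.38 on the direct pair, -0.146 and 0.49 through control, and -0.078 and 0.53 through DMF100. Normalization centred each array near 0 over its own kept spots, so these medians are no measure of a shift between the solvents. Across probes the direct pair correlated at 0.32 with the route through DMF100 (3141 probes) and at 0.00 with the route through control (3163 probes). The routes through control and through DMF100 correlated at 0.01 (3450 probes). Of 3051 probes with a value on each route, 400 (13.1%) were above 0 on all 3 and 445 (14.6%) were below 0 on all 3. Without the direct pair limma again called 0 probes, with a smallest adjusted p of 0.715, and 239 had an unadjusted p under 0.05, 78 of them higher and 161 lower in DMF25.

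Gene symbols could be given to 47 probe spots, and 14 of these genes were measured in at least 8 of 9 pairs and tested. None of the 14 passed the adjusted threshold, with adjusted p from 0.547 to 0.971. The estimate was above 0 for 6 and below 0 for 8, with a median of -0.05, beside -0.00233 over all probes. At an unadjusted p under 0.05 there was 1 of 14 (7.14%), beside 8.93% of all probes. Of the 10 genes with a value on each route, 2 (hmx3a and igf1rb) were above 0 on all 3, beside 13.1% of probes, and 0 were below 0 on all 3. The interval lay within 1 of 0 for 12 of the 14 genes and within 0.5 of 0 for none of them.

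**Figure D4:**
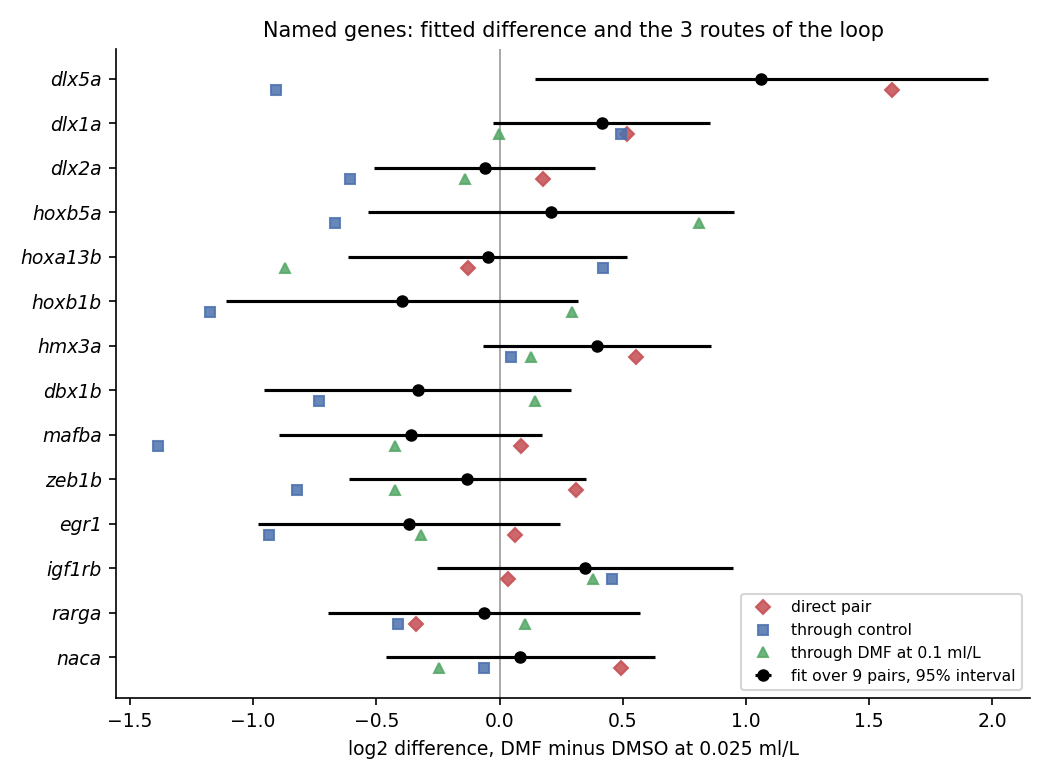
For each of the 14 named genes the black point and bar give the fitted log2 difference, DMF minus DMSO at 0.025 ml/L, with its unadjusted 95% interval, and the coloured points give the value of each route alone. The interval of dlx5a is the 1 that leaves out 0, from 0.14 to 1.98, and its 2 measured routes lie at 1.59 and -0.91.

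The dlx genes encode distal-less homeobox factors of the ventral forebrain, pharyngeal arches and fins. On the array 8 of 9 listed members could be found by name and 3 were tested, 2 above 0 and 1 below, with a median of 0.42. The gene dlx5a (NM_131306), which acts in pharyngeal arch, ear and fin development, had the largest estimate of the named genes. On the direct pair its log2 ratio of DMF25 over DMSO25 was 3.66 with DMF25 in Cy5 and -0.48 with DMF25 in Cy3, a mean of 1.59. These arrays put the solvents in opposite order, and after the dye effect of the probe was removed both were above 0, at 2.93 and 0.26. That dye effect was 0.735 from the other pairs, against 2.068 within the direct pair, so the 2 arrays stayed far apart. Its ratio was -0.31 for DMF25 replicate 1 over control replicate 2, the mean of 1.59 with DMF25 in Cy5 and -2.205 with DMF25 in Cy3, and 0.60 for DMSO25 replicate 1 over control replicate 1, which made the route through control -0.91. It was 0.24 for DMF25 replicate 3 over DMF100 replicate 2 and 2.31 for DMSO100 replicate 2 over DMSO25 replicate 2, and the pair of DMF100 replicate 4 and DMSO25 replicate 4 gave no ratio. The ratio of 2.31 entered the fit but lies on none of the 3 routes. In the pair means, DMF25 replicate 4 was above its DMSO25 partner, while DMF25 replicate 1 was below its control and DMSO25 replicate 1 above its own, but the arrays of the direct pair and of DMF25 replicate 1 differed in sign.

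The fitted difference of dlx5a was 1.06 ± 0.42 (SE of the fit over 8 pairs), with an unadjusted 95% interval from 0.14 to 1.98 and an adjusted p of 0.547. On the array with the ratio of 3.66, the amplitude of dlx5a was 7.58 times the empty spots in DMF25 replicate 4 and 0.599 times in DMSO25 replicate 3. Its amplitude was 0.189 times the empty spots in Cy3 and 0.314 times in Cy5 for DMSO25 replicate 2, against 2.95 times in Cy5 and 18.2 times in Cy3 for DMSO25 replicate 1. It was also under the empty spots, at 0.962 times, in DMF25 replicate 1 in Cy3 and, at 0.44 times, in control replicate 1 in Cy3. DMSO25 replicate 4 was at 0.972 times in Cy3 and 1.72 times in Cy5, and DMSO25 replicate 3 at 1.56 times in Cy5. The other readings of DMF25 were higher, at 3.61 times for replicate 1 in Cy5. In Cy5 and Cy3 they were 44.3 and 10.8 times for replicate 3 and 7.58 and 6.09 times for replicate 4. Readings close to or under the empty spots thus fell mainly on the DMSO25 side of this difference. With spots at or under the empty spots left out, dlx5a, like hoxb5a, no longer had enough pairs to be tested. The fitted difference of dlx5a was 0.46 without the direct pair (adjusted p = 0.917). Without DMSO25 replicate 1 and control replicate 1 it was 1.70 and passed, with an adjusted p of 0.0425. With the replicate number as a block it was -1.0 ± 0.73 (adjusted p = 0.998), in a fit with more coefficients for the same pairs. In the second scan batch alone it was 0.98 (adjusted p = 1).

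The paralogues dlx1a and dlx2a act in the differentiation of forebrain interneurons. For dlx1a (NM_131305) the direct pair gave 1.23 with DMF25 in Cy5 and -0.19 with DMF25 in Cy3. Its routes were 0.52 on the direct pair, 0.49 through control and -0.002 through DMF100. The fitted difference was 0.41 ± 0.21 (adjusted p = 0.585), with an interval from -0.03 to 0.85. For dlx2a the routes were 0.18, -0.61 and -0.14 in the same order, so the direct pair alone was above 0, and the fit gave -0.06 ± 0.21, from -0.51 to 0.39. Of the members not tested, dlx4b had a ratio on the direct pair, -1.16, with -0.18 and -2.14 on its 2 arrays, and no value on the other routes.

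The hox genes encode homeobox factors that set position along the head-to-tail axis. Of 7 found by name, 3 were tested, 1 above 0 and 2 below, with a median of -0.05. The hindbrain gene hoxb1b had -0.40 ± 0.33 (interval -1.11 to 0.32), with -1.18 through control and 0.29 through DMF100. The trunk gene hoxb5a had 0.21 ± 0.34 (interval -0.53 to 0.95), with -0.67 through control and 0.81 through DMF100. In both genes the 2 routes were of opposite sign, and the direct pair gave a ratio on 1 of its arrays. The posterior gene hoxa13b, which acts in fin and tail, had -0.05 ± 0.26, with -0.13 on the direct pair, 0.42 through control and -0.87 through DMF100. Among the untested members, hoxc5a had -0.23 on the direct pair, with -0.27 and -0.19 on its arrays.

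Regulators of hindbrain, spinal cord and ear had 3 tested members of 4 found by name, 1 above 0 and 2 below, with a median of -0.33. The gene hmx3a (NM_131634), a homeobox factor of the inner ear and lateral line, had 1.42 on the direct array with DMF25 in Cy5 and -0.31 on that with DMF25 in Cy3. Its routes were 0.56 on the direct pair, 0.05 through control and 0.13 through DMF100, all above 0, and the fit gave 0.40 ± 0.22 (interval -0.07 to 0.86, adjusted p = 0.611). The gene mafba, a leucine zipper factor of hindbrain segments, had 0.25 with DMF25 in Cy5 and -0.07 with DMF25 in Cy3. Its ratio was -0.85 for DMF25 replicate 1 over control replicate 2 and 0.54 for DMSO25 replicate 1 over control replicate 1, so the route through control was -1.39, against -0.42 through DMF100. The fitted difference of mafba was -0.36 ± 0.25 (interval -0.90 to 0.17), -0.75 without the direct pair (adjusted p = 0.734) and -0.09 without DMF25 replicate 1 and control replicate 2. The spinal cord interneuron gene dbx1b had -0.33 ± 0.29 (interval -0.95 to 0.29), with -0.73 through control and 0.14 through DMF100.

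**Figure D5:**
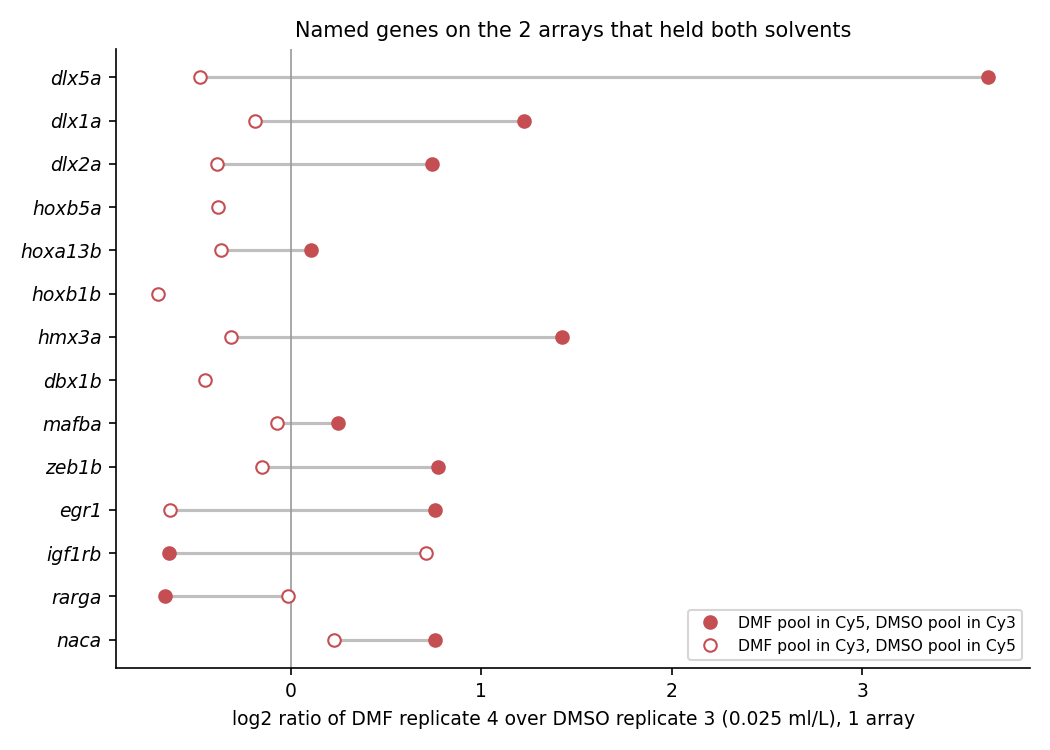
Log2 ratios of DMF replicate 4 over DMSO replicate 3 at 0.025 ml/L for the 14 named genes on the 2 arrays that held both pools, with DMF in Cy5 (filled) or in Cy3 (open) and a line joining the 2. Of the 11 genes measured on both arrays, 9 lie on opposite sides of 0, and dlx5a spans the widest gap, from 3.66 to -0.48.

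Of the inducible factors, 2 of 3 found by name were tested and both were below 0, with a median of -0.25. The immediate early gene egr1, a zinc finger factor induced within minutes of many stimuli, had 0.76 and -0.64 on the direct arrays with DMF25 in Cy5 and in Cy3. Its routes were 0.06, -0.94 through control and -0.32 through DMF100, and the fit gave -0.37 ± 0.29 (interval -0.98 to 0.25). The repressor zeb1b, a zinc finger and homeobox factor known in epithelial-to-mesenchymal transition, had -0.13 ± 0.22 (interval -0.61 to 0.35). Its direct value of 0.31 stood against -0.82 through control and -0.42 through DMF100.

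Growth factor and retinoid receptors had 2 tested members of 3 found by name. The insulin-like growth factor receptor igf1rb was above 0 on each route, at 0.04 on the direct pair, 0.46 through control and 0.38 through DMF100. Its 2 direct arrays gave -0.64 and 0.71, and the fit gave 0.35 ± 0.28 (interval -0.26 to 0.95). The retinoic acid receptor rarga had -0.06 ± 0.29 (interval -0.70 to 0.57), with -0.34 on the direct pair, -0.41 through control and 0.10 through DMF100. The nascent polypeptide binding gene naca had spots far above background on the direct pair, at 221 and 164 times the empty spots in DMF25 replicate 4 and 26.4 and 106 times in DMSO25 replicate 3, in Cy5 and Cy3 in that order. Its difference was 0.09 ± 0.25 (interval -0.46 to 0.63), with 0.49 on the direct pair, -0.06 through control and -0.24 through DMF100.

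On the direct pair, 2 of the 11 named genes measured on both arrays, naca and rarga, had 1 sign on both arrays. Within the other pairs with a DMF25 or DMSO25 pool, 5 of 14 to 9 of 14 named genes did. After the dye effect was removed 3 of 11 did on the direct pair, and these were dlx5a, rarga and zeb1b. Of the 11 named genes that the direct pair could change, 8 had the same sign of their fitted difference without it. The exceptions were hoxa13b (0.02), naca (-0.27) and rarga (0.18).

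The remaining 33 named genes lacked a ratio in too many pairs for the test, and 10 of them had a ratio in no pair. With at least 6 pairs required, 5118 probes were tested, and 3 further named genes came in without passing. The growth differentiation factor gene gdf6b had 0.70 ± 0.49, the retinol carrier gene rbp4 0.21 ± 0.55 and the homeobox gene tlx2 -0.49 ± 0.31, with adjusted p of 0.740, 0.952 and 0.710. The lists for xenobiotic metabolism (10 genes), oxidative stress and heat shock (14) and the mitochondrial genome (11) had 0 members found by gene symbol and were not analysed here as lists. The record NC_002333, which no table used here pairs with a gene, was looked up after its values were seen. Of its 13 spots, in separate wells, 10 were tested and 0 passed, with 2 above 0 and 8 below, from -0.41 to 0.18 (smallest adjusted p = 0.615). Their median was -0.13, beside -0.00233 over all probes. On all 3 routes 1 of the 10 had 1 sign, beside 27.7% of probes with a value on each route.

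Most probes carried a GenBank record with no gene symbol. The records of smallest p that were higher in DMF25 were AI667325 and BI864873. AI667325 had 0.69 and 2.04 on the direct arrays with DMF25 in Cy5 and in Cy3. It had 1.36 on the direct pair, 0.99 through control and 1.93 through DMF100, with a fitted difference of 1.46 ± 0.26 (adjusted p = 0.171). BI864873 had 1.18, 0.89 and 1.03 in the same order and a fitted difference of 1.15 ± 0.22 (adjusted p = 0.171). The records of smallest p that were lower were AW281840, with -1.16 ± 0.23, and AW115596, with -1.04 ± 0.21, both at an adjusted p of 0.171. AW281840 had -0.72 and -1.50 on the direct arrays with DMF25 in Cy5 and in Cy3. It had -1.11 on the direct pair, -1.39 through control and no value through DMF100. AW115596 had -1.29 on the direct pair, -0.97 through control and -0.65 through DMF100. It had 0.05 on the direct array with DMF25 in Cy5 and -2.64 on that with DMF25 in Cy3, so its 2 arrays differed in sign. These 4 were picked by p from the same pairs, so their values over routes are a description and no test. None of them passed the threshold. The record spotted most often, AF025305 with 172 spots per array, had 0.36 ± 0.27 (interval -0.21 to 0.93), with 0.39 on the direct pair, -0.13 through control and 0.58 through DMF100. Its many spots did not bring the routes to 1 sign.

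Whether the difference between the solvents at 0.1 ml/L departed from that at 0.025 ml/L was tested in the same model. For 12 of 3652 probes (0.329%) it did, each with a lower value at 0.1 ml/L, while 476 (13%) had an unadjusted p under 0.05. None of the 14 named genes was among the 12. The gene dlx5a had -0.58 ± 0.42 for DMF100 minus DMSO100 and a change of -1.64 ± 0.52 from the lower to the higher concentration (adjusted p = 0.248). For dlx1a the difference at 0.1 ml/L was 0.20 ± 0.21 and for hmx3a -0.15 ± 0.22, and the change between concentrations did not pass for either (adjusted p = 0.791 and 0.420). The count of 12 was 0 without the direct pair, 0 without DMF100 replicate 3 and DMSO100 replicate 4, 1 without DMF25 replicate 3 and DMF100 replicate 2, and 4 without DMSO100 replicate 2 and DMSO25 replicate 2. It was 50 without DMSO100 replicate 3 and control replicate 4 and 44 without DMF100 replicate 1 and control replicate 3.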

How the data were processed

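Spot intensities were deposited as the amplitudes that BlueFuse for Microarrays gave per channel, and no background column was given; 2 arrays had version 3.3 and 18 had 3.6, per the file headers. The authors' deposited value table holds 1 log2 ratio per spot. Each of its 20 columns correlated best with Cy5 over Cy3 of its own array; its scale and normalization are not given in the sources used here. RNA was amplified before labelling, per the labels' protocols.

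Log2 ratios of these amplitudes were analysed with limma 3.58.1 under R 4.3.3, with statmod 1.5.0 and jsonlite 2.0.0. Of 17328 spots, 750 controls and spots of the lowest confidence grade were left out, loess (span 0.3, 4 iterations) was run per array, the 172 spots of 1 record were averaged (16407 probes), and dye-swapped arrays were averaged to 1 ratio. The pair of DMSO100 replicate 1 and DMF25 replicate 2 was left out: array 1 names the scan of array 17, and their raw ratios correlated at 0.88 (at most 0.60 over other array pairs). The model had each exposed group minus control over 9 pairs, by lmFit and eBayes (5 or 4 residual and 8.67 prior degrees of freedom). The contrast was coded as a model coefficient, which is exact with missing ratios. Probes with a ratio in 8 or more pairs were tested. Intervals are at 95% and not adjusted. The code of the fit was run on simulated pair ratios with independent normal errors. These hold no disagreement of arrays or routes, so that run does not bear on the disagreement seen here.

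Symbols came from exact RefSeq accessions in the reference gene table. Named genes were all tested probes with a symbol, and of records without one the 2 of smallest p in each direction. Members and gene lists were chosen with earlier results of these data known. The routes of the loop were planned; the checks of dye-swap agreement were added after the values of dlx5a were seen. The files name no genome build, and no sequences or coordinates are given. Alternatives left out each pair and varied the pairs, filters, background, normalization, replicate block and model.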

Additional observations from a re-analysis of the deposited data

Results flagged for a closer look

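The difference between the solvents was not the same at both concentrations for 12 probes, by the test of the change itself (limma, adjusted p under 0.05, 0.329% of 3652). For these 12 the median log2 difference of DMF minus DMSO was -2.25 at 0.1 ml/L (-3.40 to -0.49) and 0.95 at 0.025 ml/L (0.24 to 1.84), with 12 of 12 below 0 at the higher and 12 of 12 above 0 at the lower concentration. At 0.025 ml/L alone 7 of the 12 had an unadjusted p under 0.05, beside 326 of all 3652 (8.93%), and 0 passed the adjusted threshold. The test that picked the 12 contains this same difference at 0.025 ml/L with its sign turned. The medians, the counts of signs and the 7 of 12 are therefore a description and no support. The count was 0 without DMF25 replicate 4 and DMSO25 replicate 3 and 0 without DMF100 replicate 3 and DMSO100 replicate 4. It was also 0 with the replicate block, with low-confidence spots kept, with 1 array of a pair sufficing, with print-tip loess, with median centring, with scaling between arrays and in the authors' value table. The causes were not tested.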

How the results depend on the processing

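The count of 0 probes between DMF25 and DMSO25 was also 0 under 24 of 27 alternatives. It was 8, all higher in DMF25, without DMSO25 replicate 1 and control replicate 1, and 1 in the second scan batch. With separate channels it was 102 (66 higher, 36 lower). The separate-channel fits, here and for the change with concentration, took the readings of a pool in each dye as independent replicates. Leaving out 1 pair gave 0 to 8. At an unadjusted p the count of 326 was 186 with the authors' value table, 197 with scaling between arrays, 149 in the second batch, 1489 of 16407 with low-confidence spots kept and 596 of 6267 with 1 array sufficing. With the replicate block it was 120, and 0 were called; the labels do not say that numbers pair plates, and DMF25 and DMSO25 pools of the same number shared no array, so whether they deviate together was not checked. The 12 probes whose difference changed with concentration became 0 to 50 with 1 pair left out, 50 (16 higher) with only the 6 pairs holding a DMF25 or DMSO25 pool, 49 (7 higher) with single arrays and 275 (102 higher) with separate channels. They became 0 with the replicate block, with low-confidence spots kept, with 1 array sufficing, with print-tip loess, with median centring, with scaling between arrays and with the authors' value table. The causes were not tested.

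Among named genes, dlx1a and hmx3a stayed above 0 under each of 27 alternatives (single routes aside), from 0.31 to 0.57 and from 0.26 to 0.52, and passed under none. With 1 pair left out, the sign turned for dlx2a (-0.27 to 0.073), hoxa13b (-0.27 to 0.13), hoxb1b (-0.86 to 0.072), hoxb5a (-0.35 to 0.77), naca (-0.27 to 0.25), rarga (-0.25 to 0.18) and zeb1b (-0.52 to 0.011). It did not turn for dbx1b (-0.66 to -0.007), egr1 (-0.74 to -0.24), igf1rb (0.085 to 0.62), mafba (-0.75 to -0.088) or dlx5a (0.46 to 1.70). The replicate block added coefficients for the same pairs, so fewer residual degrees of freedom were left. With that block the sign turned for dlx5a (-1.0), egr1 (0.25), hoxa13b (0.26), hoxb5a (-0.21), igf1rb (-0.63), mafba (0.044) and zeb1b (0.12). It turned for dbx1b with low-confidence spots kept (0.018), for dlx2a with print-tip loess (0.056) and the authors' value table (0.00), and for hoxb5a in the second batch (-0.41), with 1 array sufficing (-0.067) and with single arrays (-0.022). For hoxa13b it turned in the second batch (0.15), with print-tip loess (0.083), with median centring (0.023) and with the authors' value table (0.13). The arrays of a pair had a consensus correlation of -0.29 in the single-array fit. With a background model dlx5a was 0.82 (normexp) and 0.76 (normexp set from empty spots). This last setting was recoded after its first result, which equalled plain normexp, was seen, and leaving out spots at or under empty spots was added after the data were seen. Signal close to empty spots in DMSO25 replicates 2 to 4 limits how small a level could be measured there. In DMSO25 replicate 2 in Cy5, hoxb5a (0.685 times), hmx3a (0.804), mafba (0.889) and dlx1a (0.9) also read under the empty spots. With such spots left out, hoxb5a, like dlx5a, had too few pairs, and hmx3a was 0.32, dlx1a 0.38 and mafba -0.41.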
